A study of Mus musculus with 2 samples.

Results

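The insulin-like growth factor (IGF) family was examined in RNA sequencing of cells from mouse gonadal fat. The family was taken as 10 of the 24091 genes listed, namely the 2 ligands Igf1 and Igf2, the 2 receptors Igf1r and Igf2r, and the 6 binding proteins Igfbp2, Igfbp3, Igfbp4, Igfbp5, Igfbp6, and Igfbp7. Rows were found by gene symbol, and all 10 were present. The members were chosen by family with the levels of both libraries already known, so their levels and differences are given as a description, with no test.

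The data comprise 1 library from sham-irradiated C57BL/6 mice, named the sham library here, and 1 from C57BL/6 mice that received pelvic radiation, given in the labels as 7.5 Gy and 5 days without saying whether the dose was daily or total. Fat was collected 2 months after radiation, collagenase was used to free the cells, and the floating cells of both conditions were cultured for 3 days. Both sample names include PBS, and what received it is not stated. The age of the mice and how many gave each library were not given in the sources used here, and with 1 library per condition no difference has a replicate check.

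Levels are in FPKM, which are fragments scaled by gene length and by the total of the library. A difference is the log2 value of the irradiated library minus that of the sham-irradiated library, where 0.1 had been added to the FPKM before the logarithm. Genes that reached an FPKM of 1 in either library, 11253 in all, were kept, and a difference of 1 or more, up or down, was counted as past the threshold. The totals recovered from the values were 30577000 fragments for the sham library and 34994000 for the irradiated library. Each interval is an exact 95% interval from the fragments on the gene, covers counting error only, was taken without the added 0.1, and compares these libraries rather than the conditions.

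The labels name the cells primary adipocytes. The 3 defining markers of mature adipocytes had an FPKM under 1 in both libraries, with Adipoq at 0.133 FPKM in the sham library and 0.232 after irradiation, Plin1 at 0.254 and 0.478, and Lep at 0 and 2 fragments. In both libraries, 9 of 14 adipocyte markers had an FPKM under 1. Among the others, Cd36 had 118 FPKM in the sham library and 161 after irradiation, Fabp4 96.9 in both, and Lpl 68.0 and 66.6. All 12 fibroblast or progenitor markers and all 12 macrophage markers reached 1 in at least 1 library. So did all 10 mesothelial, all 10 endothelial, and all 10 mural cell markers, beside 11253 of the 24091 genes listed. The IGF levels are those of a culture in which markers of several cell types were detected. In such bulk RNA, fewer cells of a type and less RNA per cell cannot be told apart.

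IGF1 and IGF2 are secreted growth factors related to insulin that signal through the IGF1 receptor, a tyrosine kinase, while the IGF2 receptor carries IGF2 to lysosomes for degradation. The binding proteins hold the ligands in blood and tissue fluid, where they prolong their life and control how much ligand reaches the receptor, and proteases that cut them release it. In fat, IGF1 is a growth factor of adipocyte precursors.

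Of the 6 binding proteins, Igfbp2, Igfbp5, and Igfbp6 were higher in the irradiated library and Igfbp3 was lower. Igfbp4 and Igfbp7 were close to level, as were the ligands and receptors. Igfbp2 was 3.19-fold higher in the irradiated library, and Igfbp3 was 2.13-fold lower. Igfbp6 was 1.75-fold higher and Igfbp5 1.43-fold higher. Of the 10 members, 9 were kept, and Igf2 was not. Among the 9, 1 was higher and 1 lower by at least 1, where 0.791% and 0.373% of all kept genes were. The higher one, Igfbp2, was at 0.99 with 1 added to the FPKM in place of 0.1, and it was left out where an FPKM of 5 was required, so the count was 0 under either setting. At a lower threshold of 0.5, 3 were higher and 1 lower, where 4.31% and 1.44% of kept genes were. Igfbp5, at 0.51, was at 0.49 and so under this threshold when the differences were centred, when libraries were scaled without the 100 most abundant genes, or when the trimmed mean was subtracted, which leaves 2 higher. The family was proposed with these differences in view, so nothing is read from the comparison with all genes. The median difference of all 10 members was 0.14, and also of the 9 kept, whose mean was 0.224, beside a median of 0.02 for all kept genes. The members ran from -1.09 to 1.56.

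**Figure D1:**
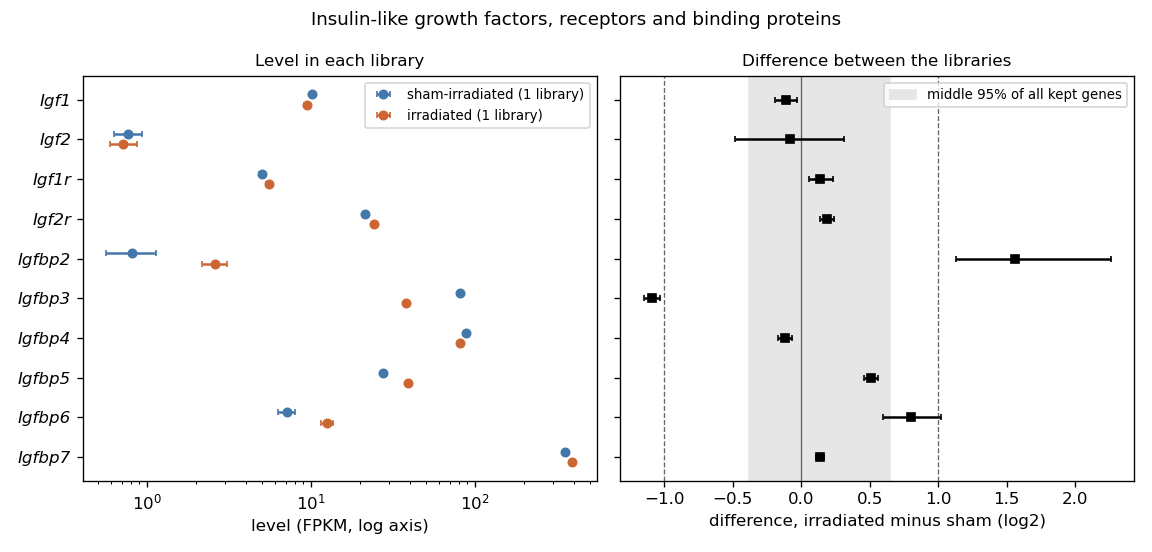
Level (FPKM, log axis) of the 10 genes in the sham library and the irradiated library, 1 library each, and their difference (log2), with 95% counting intervals. Dashed lines mark a difference of 1 and the grey band holds the middle 95% of all kept genes, from -0.38 to 0.65. Igfbp3 lies below the band, and Igfbp2 and Igfbp6 lie above it.

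Igfbp3 encodes the main carrier of IGFs in blood. The gene lies on the minus strand of chromosome 11 from 7206091 to 7213923 (mm10). Its level was an FPKM of 81.5 (interval 79.4 to 83.5) in the sham library and 38.2 (36.9 to 39.6) after irradiation, on 6071 and 3259 fragments. The intervals of the levels did not overlap, which held for every kept member and so does not set Igfbp3 apart. The difference was -1.09, with a counting interval of the fold from 2.04 to 2.23. Among the 7538 genes that reached an FPKM of 5 in either library, it held rank 8 from the lowest difference, and 10 of those genes were lower by at least 1. Among all 11253 kept genes it held rank 35, and 42 were lower by at least 1.

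Igfbp2 encodes a binding protein that circulates in blood and is also made by adipocyte precursors. The gene lies on the plus strand of chromosome 1 from 72824480 to 72852471. Its level was an FPKM of 0.814 (0.565 to 1.13) in the sham library and 2.59 (2.16 to 3.08) after irradiation. These levels rest on 35 and 128 fragments, the fewest of the 6 members that are binding proteins in each library. The difference was 1.56, and without the added 0.1 the interval of the fold ran from 2.18 to 4.79. Igfbp2 was kept through the irradiated library alone, since it was under an FPKM of 1 in the other.

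Igfbp6, which binds IGF2 with preference over IGF1, had an FPKM of 7.16 (6.34 to 8.04) in the sham library and 12.5 (11.5 to 13.6) after irradiation. Its difference was 0.80, with a fold of 1.75 (1.52 to 2.03). The gene lies on chromosome 15 from 102144186 to 102149512. Igfbp5, a binding protein that also attaches to the extracellular matrix, had 27.4 (26.6 to 28.2) and 39.0 (38.2 to 39.9). Its difference was 0.51, with a fold of 1.43 (1.38 to 1.48), and it lies on chromosome 1 from 72858065 to 72874865. For both genes the irradiated library was the higher, and the intervals of the levels did not overlap, as for every kept member.

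Igfbp4 and Igfbp7 were the most abundant members and differed little. Igfbp4, an inhibitor of IGF action that is cut by pregnancy-associated plasma protein A, had an FPKM of 88.5 (86.2 to 90.9) in the sham library and 81.5 (79.4 to 83.6) after irradiation. Its difference was -0.12, with an interval from -0.17 to -0.07. Igfbp7, which binds IGFs only weakly and is abundant in matrix and vessel walls, had 354 (348 to 361) and 391 (385 to 397). Its difference was 0.14, with an interval from 0.11 to 0.17. Igfbp4 lies on chromosome 11 from 99041260 to 99052643, and Igfbp7 on chromosome 5 from 77349240 to 77408045. The counting interval lay above 0 for 4 of the 6 binding proteins and below 0 for the other 2, where it lay above 0 for 23.8% and below 0 for 17.5% of all kept genes.

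Set beside Igfbp3, each of the other 5 binding proteins had a higher difference. The gap was 2.65 for Igfbp2 (combined counting interval 2.21 to 3.35), 1.89 for Igfbp6 (1.68 to 2.12), and 1.60 for Igfbp5 (1.52 to 1.68). It was 1.23 for Igfbp7 (1.16 to 1.30) and 0.97 for Igfbp4 (0.89 to 1.05), all on the log2 scale. The FPKM of Igfbp3 was 0.920 times that of Igfbp4 in the sham library and 0.469 times after irradiation. Igfbp3 was 2.98 times as abundant as Igfbp5 in the sham library and 0.979 times after irradiation. Relative to Igfbp6 it was 11.4 times as abundant in the former and 3.05 times in the latter.

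The summed FPKM of the 6 binding proteins was 560 in the sham library and 564 after irradiation. Igfbp7 made up 63.3% and 69.2% of it. The share of Igfbp3 was 14.6% and 6.77%, that of Igfbp5 4.89% and 6.91%, and that of Igfbp6 1.28% and 2.22%. Igfbp4 made up 15.8% and 14.4%, and Igfbp2 0.145% and 0.460%. Without Igfbp7, the sum was 205 and 174, and the share of Igfbp3 was 39.7% and 22.0%. The near-equal totals thus held a different makeup, in which Igfbp3 ranked after Igfbp7 and Igfbp4 in the sham library and lay level with Igfbp5 in the irradiated library.

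**Figure D2:**
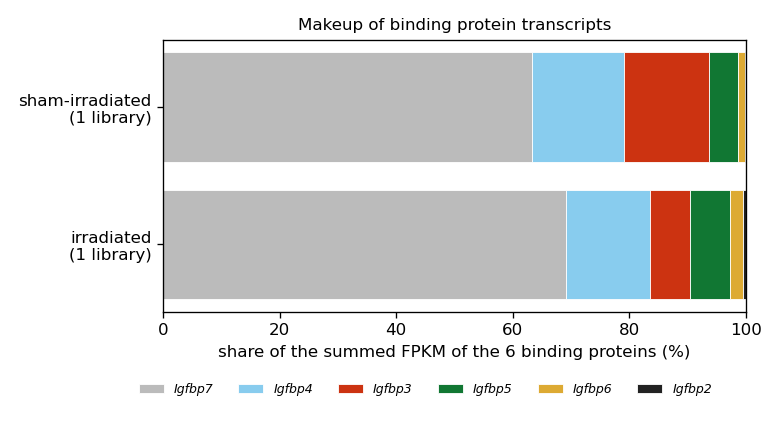
Share of each binding protein in their summed FPKM (percent, horizontal axis) in the sham library and the irradiated library, 1 library per bar. The Igfbp3 segment spans 14.6% of the upper bar and 6.77% of the lower bar, and that of Igfbp7 63.3% and 69.2%.

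The ligands were lower in abundance than most binding proteins. Igf1 (chromosome 10, 87858265 to 87937047) had an FPKM of 10.2 (9.85 to 10.6) in the sham library and 9.48 (9.13 to 9.84) after irradiation. Its difference was -0.11, with an interval from -0.19 to -0.03. Igf2, an imprinted gene on chromosome 7 from 142650768 to 142666816, had 0.765 (0.628 to 0.927) and 0.718 (0.594 to 0.866), on 106 and 114 fragments. Its difference was -0.08, and the interval from -0.48 to 0.31 includes 0, so no difference was detectable at this depth. Igf2 shares 7124 bases with Igf2os on the opposite strand, which had 1 fragment in the sham library and none after irradiation.

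Both receptors were slightly higher in the irradiated library. Igf1r (chromosome 7, 67952257 to 68233667) had an FPKM of 5.03 (4.81 to 5.26) in the sham library and 5.56 (5.34 to 5.78) after irradiation, a difference of 0.14 (0.06 to 0.23). Igf2r, on chromosome 17 from 12682406 to 12769706, had 21.3 (20.8 to 21.9) and 24.3 (23.8 to 24.9), a difference of 0.19 (0.14 to 0.24). Igf2r shares 28396 bases with the antisense RNA Airn, which had an FPKM of 0.735 and 0.696. The library kit is labelled as stranded, but whether fragments were counted by strand was not given in the sources used here, so reads of the overlapping genes may not be separated.

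In order of FPKM, which is per gene length, the sham-irradiated library ran Igfbp7, Igfbp4, Igfbp3, Igfbp5, Igf2r, Igf1, Igfbp6, Igf1r, Igfbp2, and Igf2. The irradiated library ran Igfbp7, Igfbp4, Igfbp5, Igfbp3, Igf2r, Igfbp6, Igf1, Igf1r, Igfbp2, and Igf2. Neighbours whose counting intervals overlapped were Igfbp2 and Igf2 in the sham library and Igfbp5 and Igfbp3 in the irradiated library. Igfbp7 was above 98.9% and 99.0% of kept genes, and Igfbp3 above 94.3% and 86.7%.

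The remaining classical binding protein, Igfbp1, a product of liver, was at the floor with 0 fragments in the sham library and 1 after irradiation. The floor set for it, 3 fragments, is an FPKM of 0.0647 in the sham library. It is the chromosomal neighbour of Igfbp3, lying on the opposite strand with 3544 bases between them and the 3′ ends of both genes facing each other. Igfbp2 and Igfbp5 are arranged likewise on chromosome 1, with 5593 bases between their 3′ ends. Igfbp2 and Igfbp5, both higher in the irradiated library, had differences of 1.56 and 0.51. With 0 and 1 fragments, Igfbp1 cannot be compared with Igfbp3. The part of gene position in these differences was not tested. In the GENCODE annotation of GRCm38, the longest coding transcript has 4 exons for Igfbp2, Igfbp4, Igfbp5, and Igfbp6, 5 for Igfbp3, and 6 for Igfbp7.

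The genes nearest to Igfbp3 in their pair of log2 values, among 7531 genes that reached an FPKM of 5, leaving out predicted genes, were Tmem97, Mmp9, Olfml3, Jak2, and Shmt2. Their distances over the 2 libraries were 0.36, 0.38, 0.48, 0.50, and 0.53. Their differences were -0.59, -0.66, -0.48, -0.53, and -0.45, each smaller in size than that of Igfbp3. Smaller differences were likely beforehand, since only 10 of the 7538 genes that reached an FPKM of 5 were lower by at least 1. Igfbp3 held rank 8 among those 7538, so genes with a lower difference exist and were not among the nearest.

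Genes that act around the family were described from lists, and of their 84 genes 64 were kept. None of the 64 passed the threshold of 1 in either direction. Of the 64, 36 were higher, 26 were lower, and 2 had equal values, where 53.5% and 44.0% of all kept genes were higher and lower. The direction counts of each list below stand beside these same shares and are a description only. Their median difference was 0.02, the same as over all kept genes, and genes within 0.03 of 0 can change side with the scaling of the libraries. The counting interval lay above 0 for 22 of the 64 and below 0 for 17, beside 23.8% and 17.5% of all kept genes. Past the lower threshold of 0.5, 5 were higher and 4 lower, beside 4.31% and 1.44%. With 0.791% and 0.373% of all kept genes past 1, a count of 0 among 64 is not particular to these lists. Htra4 and Cish were kept through the irradiated library alone.

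Proteases that cut binding proteins, with the inhibitors of such proteases, were kept for 14 of 16 genes, of which 10 were higher and 4 lower, with a median of 0.145, or 0.225 where an FPKM of 5 was required. Timp3, a matrix-bound inhibitor of metalloproteinases, had the highest difference, 0.96 (0.93 to 0.99), with FPKM values of 92.3 in the sham library and 180 after irradiation. Mmp9, a gelatinase, had the lowest, -0.66 (-0.72 to -0.60), with 62.6 and 39.6. The most abundant gene of the list was Timp1, with a difference of 0.24. Pappa, whose product cuts Igfbp4, had an FPKM of 6.31 in the sham library and 6.40 after irradiation, and Stc2, which encodes an inhibitor of that protease, had 2.89 and 2.03.

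Relatives that carry a binding protein domain, or that join the circulating complex, were kept for 6 of 9 genes, 4 of them higher and 2 lower. Htra4, a secreted serine protease, had the largest difference, 0.86, on 37 and 83 fragments. Crim1, a membrane protein and the most abundant of the list, had 28.5 and 37.4, a difference of 0.39. Kazald1 had the lowest difference, -0.09. Igfals, the subunit that completes the circulating complex with Igfbp3, had 0 and 2 fragments.

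Signalling genes below the IGF1 receptor were close to level between the libraries. Of 27 kept, 14 were higher, 12 lower, and 1 equal, with a median of 0.01, which lay between -0.012 and -0.006 when libraries were centred or rescaled. The extremes were Pik3cb, a catalytic subunit of phosphoinositide 3-kinase, at 0.37, and Rps6kb1, the ribosomal S6 kinase, at -0.19. Akt1 was the most abundant, with an FPKM of 91.0 and 91.7. The adaptors that the receptor phosphorylates, Irs1 and Irs2, had differences of 0.06 (-0.08 to 0.21) and 0.28 (0.07 to 0.51).

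The growth hormone axis, which induces Igf1 in liver and fat, had 4 of 8 genes higher and 4 lower. Cish, a feedback inhibitor, had the highest difference, 0.60 on 67 and 122 fragments. Socs1, another such inhibitor, had the lowest, -0.55 on 111 and 85 fragments. Jak2, the kinase of the growth hormone receptor and the most abundant of the list, had an FPKM of 78.1 and 54.1, a difference of -0.53. The receptor Ghr had 8.47 and 10.6, a difference of 0.32 with an interval from 0.22 to 0.43.

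Of related receptors and partners, 4 of 5 genes were kept, 2 higher, 1 lower, and 1 equal. Lrp1, a scavenger receptor and the most abundant, had an FPKM of 128 in both libraries. The insulin receptor Insr had the lowest difference, -0.05, and Tmem219, which encodes a receptor for Igfbp3, the highest, 0.19 with an interval from -0.03 to 0.42. Insulin itself was not detected, with 0 fragments for Ins1 and Ins2 in both libraries, and of 7 insulin and relaxin genes only Insl6 was kept, at an FPKM of 1.44 and 1.78. Of 3 proteins that bind Igf2 mRNA, only Igf2bp2 was kept, with a difference of -0.17. Among 7 imprinted or antisense genes, 3 were kept, and H19, the noncoding neighbour of Igf2, had 5.92 and 3.93, a difference of -0.58. Among these 3 kept genes, Mest had the highest difference, 0.09.

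**Figure D3:**
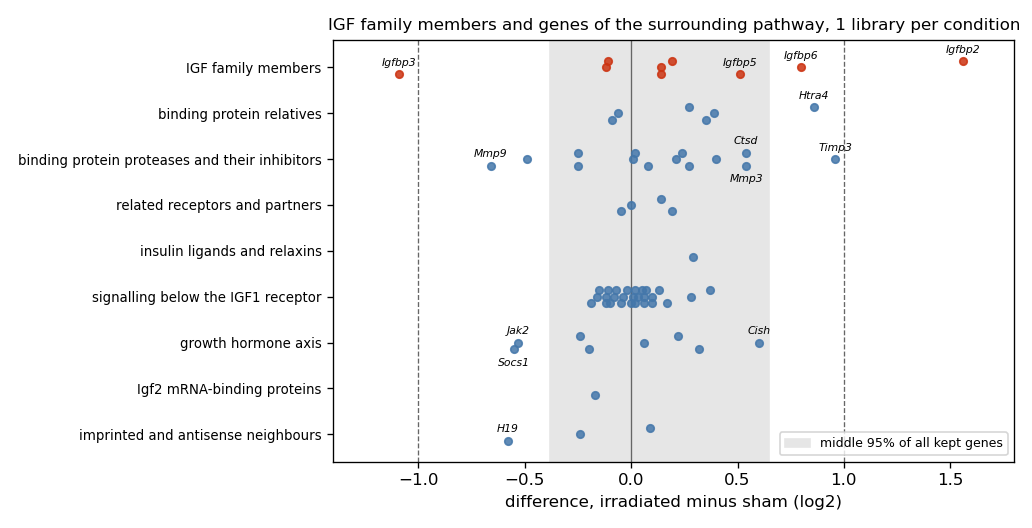
Difference between the irradiated and the sham-irradiated library (log2, horizontal axis) for each kept gene of the family and of the surrounding lists, 1 point per gene. Points past 0.5 are named, dashed lines mark 1, and the grey band holds the middle 95% of all kept genes. Among the points drawn, only Igfbp2 and Igfbp3 lie past a dashed line.

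Markers of the cell types that the culture could hold were described in the same way. Of all kept genes, 53.5% were higher and 44.0% lower. Of 10 mesothelial markers, 9 were higher in the irradiated library, 5 of them by at least 1, beside 0.791% of all kept genes. The summed FPKM of the 10 was 38.1 in the sham library and 55.7 after irradiation, and without Wt1 it was 17.7 and 37.0. Msln had 0.520 and 2.71, Upk3b 0.597 and 1.70, and Wt1, the most abundant, 20.4 and 18.7. None was at 0. Wt1 was lower after irradiation, with a difference of -0.13 (-0.22 to -0.04), while the other 9 were higher, as Igfbp2 and Igfbp6 were, and the part of these markers in those differences was not tested. Like Igfbp2, 5 of the 10 passed the filter through the irradiated library alone (Msln, Upk3b, Krt19, Krt18, and Gpm6a), among them 4 of the 5 that were higher by at least 1, so these counts are a description only. Of 12 fibroblast and progenitor markers, 6 were higher and 6 lower, with a median difference of -0.03. The counting interval lay above 0 for 3 and below 0 for 6, beside 23.8% and 17.5% of all kept genes, and their summed FPKM was 4486 and 3591. Col1a1, the most abundant, had a difference of -0.44, Pdgfra had -0.37, Pdgfrb had -0.07, and Dpp4 had 0.44. Dpp4, the highest difference of the list, was kept through the irradiated library alone. Pi16 had the lowest, -0.55 (-0.92 to -0.25). Past 0.5, 1 marker was lower and 0 were higher, beside 1.44% and 4.31% of all kept genes. The lower sum lay mainly in the 3 collagens, with 3581 and 2695, while the other 9 markers summed to 905 and 896, a split made after the values were seen. The part of these markers in the Igfbp3 difference was not tested.

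Macrophage markers were higher for 10 of 12 genes, 8 of them with a counting interval above 0, beside 23.8% of all kept genes, and 5 were past 0.5, beside 4.31%. Their summed FPKM was 617 and 658. Lyz2, the most abundant, was lower, with 443 and 410, while the other 11 summed to 175 and 248. Adgre1 had a difference of -0.02, Csf1r 0.38, and Cd68 0.71. Mural cell markers were higher for 10 of 10, 8 of them with an interval above 0, beside the same 23.8%, and 2 were past 0.5, beside 4.31%. Their sums were 932 and 1184, and 388 and 541 without Acta2, the most abundant, which had 545 and 643. Rgs5, Notch3, and Cspg4 had differences of 0.25, 0.19, and 0.70. Cspg4, which had the highest difference of the list, was kept through the irradiated library alone. Endothelial markers were higher for 9 of 10, of which 4 had an interval above 0, beside 23.8% of all kept genes, and none was past 0.5, beside 4.31%, with sums of 52.9 and 58.4 and Cdh5 as the most abundant, and Pecam1 and Kdr had differences of 0.17 and 0.31. Of the 5 adipocyte markers kept, 3 were higher, 1 lower, and 1 equal, with a median difference of 0.03. Over all 14 adipocyte markers, most of them under an FPKM of 1 in both libraries, the median was 0.255. All 14 summed to 295 and 339, of which Cd36, the most abundant, had 118 and 161, and the other 13 summed to 177 and 178. Of 8 markers of the epididymal epithelium, which lies beside the gonadal fat pad in males, none was kept. In both libraries 6 were at 0, among them Lcn5, Lcn8, and Lcn9, while Rnase10 was the most abundant. Each of these lists was summed as a whole, and their part in the IGF differences was not tested.

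The promoter sequences of the 4 binding proteins with the largest differences are shown to set Igfbp2, Igfbp5, and Igfbp6, which were higher, beside Igfbp3. They are the 250 bases before the start of each gene on its own strand, from RefSeq on GRCm38.p6. All 10 members had an entry, and for 8 an entry began where the deposited table starts the gene. Capitals mark matches, on either strand, to the TATA box TATAAA, the GC box GGGCGG, the CCAAT box CCAAT, or the AP-1 site TGANTCA.
Igfbp2, chr1:72824230-72824479, plus strand: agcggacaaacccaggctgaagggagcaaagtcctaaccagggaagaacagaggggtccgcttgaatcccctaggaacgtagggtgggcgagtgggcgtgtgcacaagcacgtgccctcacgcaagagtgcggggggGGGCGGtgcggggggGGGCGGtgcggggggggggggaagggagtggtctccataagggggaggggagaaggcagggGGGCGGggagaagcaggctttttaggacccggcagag
Igfbp5, chr1:72874866-72875115, minus strand: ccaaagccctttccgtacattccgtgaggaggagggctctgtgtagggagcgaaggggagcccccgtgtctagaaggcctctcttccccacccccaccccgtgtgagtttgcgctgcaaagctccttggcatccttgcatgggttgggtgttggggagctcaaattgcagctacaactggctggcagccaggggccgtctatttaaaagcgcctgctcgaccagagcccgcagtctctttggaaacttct
Igfbp6, chr15:102143936-102144185, plus strand: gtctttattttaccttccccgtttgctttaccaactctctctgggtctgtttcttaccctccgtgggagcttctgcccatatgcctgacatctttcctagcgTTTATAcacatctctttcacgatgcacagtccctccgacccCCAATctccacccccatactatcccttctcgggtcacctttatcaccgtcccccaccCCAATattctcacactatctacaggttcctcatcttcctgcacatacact
Igfbp3, chr11:7213924-7214173, minus strand: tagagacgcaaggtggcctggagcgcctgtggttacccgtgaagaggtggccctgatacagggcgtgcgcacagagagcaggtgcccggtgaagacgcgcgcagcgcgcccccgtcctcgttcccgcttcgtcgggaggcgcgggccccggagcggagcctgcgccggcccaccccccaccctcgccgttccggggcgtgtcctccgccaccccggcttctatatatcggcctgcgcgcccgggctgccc

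The window of Igfbp2 held 3 GC boxes. That of Igfbp6 held 2 CCAAT boxes and 1 match to the TATA box letters, the latter on the strand opposite to the gene. The windows of Igfbp5 and Igfbp3 held no exact match to these letters. Inexact stretches, such as tatatat near the end of the Igfbp3 window, were not counted, so TATA-like sequence is not excluded there. Of 32851 promoter windows of the same length, 32.7% held a GC box, 12.4% a TATA box, 33.8% a CCAAT box, and 6.75% an AP-1 site. The p53 half-site, searched by its consensus on both strands, was in 7.13% of all windows and in none of these 4. The GC content was 73.2% for Igfbp3, 67.2% for Igfbp2, 58.8% for Igfbp5, and 49.6% for Igfbp6, beside a median of 52.4% over all windows. Igfbp7, which was also higher (0.14), held 4 GC boxes in its window, and Igfbp4, which was lower (-0.12), held 1 TATA box, and neither window is shown. A second entry of Igfbp2, which starts inside the gene and is not shown, held 1 AP-1 site. A match is a description of letters, and its absence concerns only this window.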

How the data were processed

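Polyadenylated RNA of 2 libraries was analysed, each assigned to its condition by its treatment label. The authors deposited log2 values of FPKM with 0.1 added, rounded to 2 decimals, with gene coordinates and lengths. The submitters' processing notes name mm10, and the aligner and counting tool were not given in the sources used here.

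FPKM was recovered from the deposited log2 values. The total of each library was taken as that giving whole fragments for genes with few of them, and values within 0.12 of a whole number came out for 2244 of 2244 such genes (sham) and 2452 of 2452 (irradiated). Fragments of abundant genes are approximate because of rounding, and a difference carries up to 0.01 from it. The procedure was tested on simulated data. Intervals are exact Poisson for levels and Clopper-Pearson for ratios, and cover counting error only, since PCR copies are not independent molecules. Those of gaps to Igfbp3 combine both genes' intervals.

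No test was made with 1 library per condition. Members and lists were chosen with earlier results of these data known. Named by rule were all members, the most abundant and extreme kept genes of each pathway list, the defining and most abundant markers, and the 5 genes nearest to Igfbp3. Outside that rule, Pappa, Stc2, Irs1, Irs2, Ghr, Igfals, Igfbp1, Ins1, Ins2, Airn, and Igf2os were named for their role, and Krt19, Krt18, and Gpm6a for passing the filter through 1 library, after their values were seen. Fabp4 and Lpl were named for their level and Pi16 for the lowest difference of its list, also after their values were seen. The software was Python 3.11.15 with SciPy 1.17.1, pandas 2.3.3, numpy 2.4.6, and matplotlib 3.10.9.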

Additional observations from a re-analysis of the deposited data

How the results depend on the processing

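No paired analysis was possible because only 1 library represents either condition, and leaving out replicates was not possible. The alternatives gave 310 values for 40 results. Of these, 144 belong to 16 counts that were 0 to begin with, 138 of them again 0, which says little about stability. Of the other 166, 153 stayed within the counting interval, the interval of the median, or 1.5 times the count, and none reversed a difference past the threshold. Medians could still move by over 1.5 times, as that of the proteases did (0.225 with an FPKM of at least 5), and that of the growth hormone axis changed from -0.070 to 0.060 under that filter. With a pseudocount of 1, the Igfbp2 difference was 0.99, so 0 members were higher by at least 1, and the gap of Igfbp3 to Igfbp2 was -2.06. By construction, this addition lowers differences of genes with low FPKM. With an FPKM of at least 5 required, Igfbp2 was left out and 0 members were higher by at least 1. With a threshold of 0.5, 3 members were higher. The Igfbp3 difference lay between -1.11 and -1.07 under the alternatives of pseudocount, scaling, and gene length.

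Over all genes, 89 were higher and 42 lower by at least 1. The counts were 29 and 17 with a pseudocount of 1, 267 and 148 with no filter, 23 and 10 with an FPKM of at least 5, and 485 and 162 with a threshold of 0.5. That threshold also gave 1 binding protein relative, 3 proteases or inhibitors, and 1 growth hormone axis gene as higher, and 1 protease or inhibitor, 2 growth hormone axis genes, and 1 imprinted gene as lower. Centring shifted all genes by -0.020, scaling without the 100 most abundant genes by -0.016, and the trimmed mean by -0.022. Depth limits Igf2, with 106 and 114 fragments, and Igfbp1, with 0 and 1.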
